A study of Mus musculus with 40 samples.

Results

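The step from day 6 to day 7 of differentiation was examined in untreated mouse embryonic stem cell aggregates, in the 4 libraries labelled day 7 without matrigel and the 4 labelled day 6 without matrigel, 8 of the 40 libraries of the series. The aggregates were made from CGR8 embryonic stem cells (strain 129), gathered in serum-free N2B27 medium with Activin-A, Fgf2 and KSR, and poly(A) RNA was sequenced. For comparison, the same step was taken in aggregates that had received XAV939, a tankyrase inhibitor that dampens the Wnt/β-catenin pathway, during the first 72 h, with 4 libraries at day 7 and 4 at day 6. The labels of the XAV939 libraries do not mention matrigel, so a difference in matrigel, if there was one, cannot be told apart from the inhibitor. CGR8 is 1 cell line, and no label states that the replicates came from separate cultures. The p-values therefore measure only the spread between libraries within groups, pooled over all 40 libraries of the series, which may be technical. In bulk RNA, fewer cells of a type and less RNA per cell cannot be told apart.

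In the mouse embryo the epiblast expresses the pluripotency factor Oct4 until gastrulation. Cells of the primitive streak and of the caudal epiblast behind it, held by Wnt, Fgf and Nodal signals and marked by Cdx genes and Nkx1-2, then give rise to mesoderm and to the spinal cord. Presomitic mesoderm is cut into somites by a clock of oscillating Notch targets, neural progenitors become neurons under proneural transcription factors, and lateral mesoderm gives heart and vessels.

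The 8 libraries held 30197759 to 44086019 counts. Levels are CPM (counts relative to the library total, with TMM scaling). Fold changes are log2 of day 7 over day 6 from edgeR's quasi-likelihood test, fitted to all 40 libraries. That test gives no standard error (SE). The SE printed here is an approximation, the absolute log2 value divided by the square root of the test's F statistic. A gene was called at an adjusted p below 0.05 over 16878 tested genes. Library 3 of day 6 stood apart from the rest. Its median absolute log2 difference from the mean of the other 3 libraries of its group was 0.578, against 0.257 to 0.312 for the other day 6 libraries and 0.140 to 0.201 for the day 7 libraries, and 24.0% of genes differed more than 2-fold, against 4.68% to 9.04% in the other day 6 libraries. Its mitochondrially encoded transcripts made up 0.915% of counts, against 1.72% to 2.84% in the other day 6 libraries. The markers of the label were mixed. Neural (Sox1, Pax6, Nes), somitic (Meox1), endothelial (Kdr) and gut (Foxa2, Epcam) genes were measured in all 8 libraries. The trophoblast gene Prl3d1 had no counts, and the embryonic globin gene Hbb-bh1 did not pass 0.0293 CPM in any of the 8. Other markers of these types differed. The endothelial genes Cdh5 and Pecam1 were at 0.162 and 0.646 CPM in day 6 library 3. The blood gene Runx1 had 1.96 to 4.97 CPM over the 8 libraries, and Gata1 had 0.506 to 1.49 CPM at day 6. The trophoblast gene Elf5 was detected, at no more than 0.517 CPM.

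Across all genes, 873 (5.17%) were higher at day 7 and 1184 (7.02%) were lower, 12.2% in all. Of these, 589 rose and 636 fell at least 2-fold. The median log2 fold change of all tested genes was -0.00, with a median SE of 0.221. In 2415 genes (14.3%) the day 7 and day 6 values did not overlap, among them 666 of the genes called higher and 731 of those called lower. In the same fit the step from day 5 to day 6 had 1874 genes higher and 1471 lower. The members called on the epiblast and streak lists fell, and those called on the neuronal, matrix, cardiac and endothelial lists rose.

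**Figure D1:**
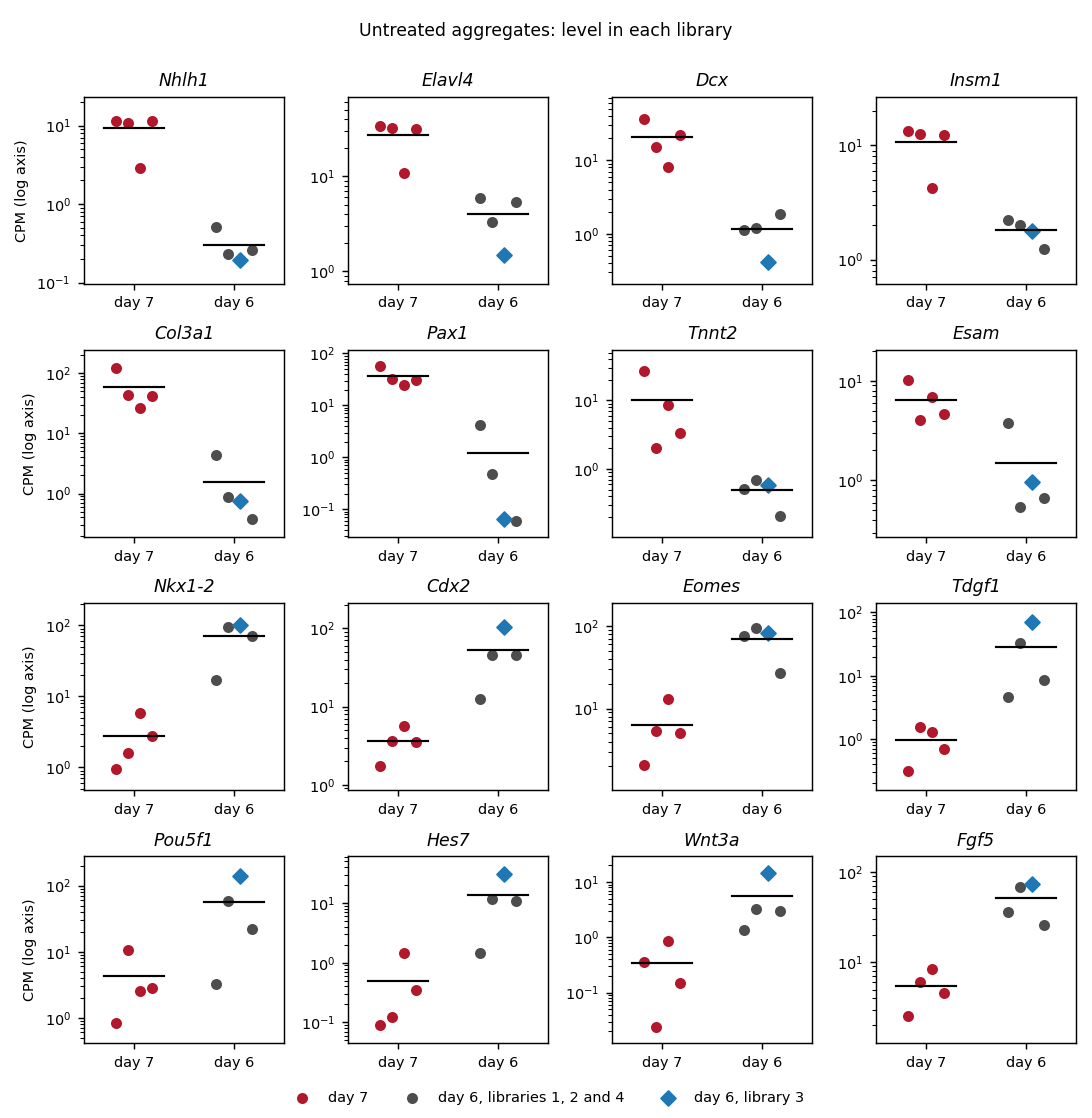
CPM (log axis) of 16 genes in each untreated library at day 7 (red) and day 6 (grey circles for libraries 1, 2 and 4, blue diamond for library 3), with black lines at group means. In the upper 8 panels every day 7 library lies above every day 6 library, and among the lower 8 panels only Pou5f1 overlaps. Library 3 is the highest day 6 library for Pou5f1, Tdgf1, Cdx2, Hes7, Wnt3a, Fgf5 and Nkx1-2.

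Of 20 tested genes of pluripotency and the primed epiblast, 9 fell and 0 rose (median log2 fold change -1.83, against -0.00 over all genes). Fgf5, the growth factor that marks the primed epiblast, had 2.54, 6.10, 8.43 and 4.61 CPM at day 7 and 36.2, 67.6, 74.4 and 26.2 CPM at day 6. The groups did not overlap, and the log2 fold change of Fgf5 was -3.25, with SE 0.367 and adjusted p 1.04e-06, the smallest adjusted p of any gene that fell. Tdgf1 (Cripto, a Nodal co-receptor; chromosome 9, 110939603 to 110946158, mm10) had 0.313, 1.54, 1.27 and 0.697 CPM at day 7 and 4.64, 32.8, 69.8 and 8.50 CPM at day 6. It gave the largest fall among genes above 5 CPM whose groups did not overlap, at -4.94 on the log2 scale with SE 0.755 and adjusted p 5.71e-05. The Nodal inhibitor Lefty2 (log2 fold change -4.50) and the pluripotency factor Nanog (-3.20) fell as well. Pou5f1, the gene of Oct4, had 0.826, 10.8, 2.51 and 2.86 CPM at day 7 and 3.28, 58.6, 138 and 22.3 CPM at day 6 (log2 fold change -3.70, SE 0.666, adjusted p 0.000338). Here the groups overlapped, since day 6 library 1 was below day 7 library 2. The gene's annotation overlaps an antisense gene, and the strand setting of the counting is not given.

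Of 19 genes of the streak and caudal epiblast, 16 fell and 0 rose, with a median of -3.47. The transcription factor Nkx1-2 of the caudal epiblast (chromosome 7, 132594878 to 132599637) had 0.960, 1.61, 5.85 and 2.74 CPM at day 7 and 16.8, 93.6, 103 and 69.9 CPM at day 6 (log2 fold change -4.69, SE 0.652, adjusted p 2.79e-05). Its 4 day 7 values lay below the lowest at day 6. Eomes, a T-box factor of the streak, had 2.08, 5.29, 13 and 5.03 CPM at day 7 and 76.2, 93.5, 81.7 and 27.0 CPM at day 6 (log2 fold change -3.47, adjusted p 4.58e-05). Both Nkx1-2 and Eomes overlap antisense genes. Wnt8a (log2 fold change -4.30), Nodal (-2.98) and the caudal homeobox genes Cdx2 (-3.85) and Cdx1 (-4.49) fell, in each case with groups that did not overlap. The members not called were T, Sp8 and Gdf11. T (Brachyury) had 15.6, 78.3, 27.9 and 39.1 CPM at day 7 and 16.4, 102, 130 and 83.7 CPM at day 6 (log2 fold change -1.05, SE 0.705, adjusted p 0.34), with overlapping groups.

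Of 21 genes of presomitic and somitic mesoderm, 8 fell and 2 rose, with a median of -0.87. The 8 that fell were Tbx6, Msgn1, Mesp1, Mesp2, Ripply1, Ripply2, Hes7 and Dll3, which act in the presomitic mesoderm and at the forming somite boundary. Mesp2, which sets that boundary, had 0.179, 0.293, 0.890 and 0.423 CPM at day 7 and 2.96, 3.74, 13.3 and 4.51 CPM at day 6 (log2 fold change -3.81, SE 0.553, adjusted p 3.93e-05). The clock gene Hes7 had 0.0893, 0.122, 1.43 and 0.349 CPM at day 7 and 1.47, 11.6, 30.4 and 10.7 CPM at day 6 (log2 fold change -4.83, adjusted p 0.000348), with groups close to each other at 1.43 and 1.47 CPM. Hes7 overlaps an antisense gene. Genes named below that also do include Pax1, Lhx3, Gbx2, Notum, Lef1, Lin28a, Dll4, Arid3b, Ccnd1 and Rarb, the last with Top2b. The 2 that rose, Pax1 and Pax9, belong to the sclerotome, the part of the somite that forms vertebrae. Pax1 (chromosome 2, 147361925 to 147393295) had 58.2, 31.7, 24.7 and 31.2 CPM at day 7 and 4.26, 0.486, 0.0646 and 0.0586 CPM at day 6 (log2 fold change 4.87, SE 0.667, adjusted p 2.33e-05). Every day 7 value was above 24 CPM, while day 6 library 1 alone exceeded 1 CPM. Without day 6 library 1 the Pax1 log2 fold change was 7.43.

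Of 18 proneural and neuroblast genes, 13 rose and 1, the Notch ligand gene Dll3, fell (median 2.02). Of 24 genes of postmitotic neurons 12 rose and 0 fell (median 1.36). Nhlh1, a basic helix-loop-helix factor of newborn neurons (chromosome 1, 172052292 to 172057573), had 11.6, 10.7, 2.89 and 11.6 CPM at day 7 and 0.506, 0.228, 0.194 and 0.264 CPM at day 6 (log2 fold change 4.91, SE 0.699, adjusted p 3.34e-05). Library 3 of day 7 was the lowest of its group but above every day 6 library. The zinc finger factor gene St18 had the largest rise among called genes above 5 CPM without overlap, with 7.08, 8.22, 1.65 and 7.57 CPM at day 7 and 0.0533, 0.143, 0 and 0.0586 CPM at day 6 (log2 fold change 6.49, SE 0.870). Dcx, a microtubule protein of migrating neurons, had 36.5, 15.2, 8.24 and 22.1 CPM at day 7 and 1.15, 1.2, 0.420 and 1.85 CPM at day 6 (log2 fold change 4.14, adjusted p 3.56e-05). Elavl4, an RNA-binding protein of neurons, rose by 2.75. Neurod4 and Insm1, both of neuronal differentiation, rose by 4.39 and 2.55. The day 7 library 3 was the lowest of its group for Nhlh1, St18, Dcx, Elavl4, Neurod4 and Insm1, and the summed level of the 24 postmitotic neuron genes was 458, 428, 256 and 418 CPM in day 7 libraries 1 to 4, against 212 to 283 CPM at day 6. The summed level of the 18 proneural genes, 164 to 262 CPM at day 7, overlapped that of day 6, 133 to 293 CPM, where day 6 library 3 was the highest. In that library the Notch ligand genes Dll1, at 162 CPM, and Dll3, at 70.7 CPM, made up most of the sum.

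Of 16 genes of the ventral neural tube 5 rose and 0 fell (median 0.97), while of 12 dorsal genes 5 fell and 0 rose (median -0.82). Olig2, a factor of motor neuron progenitors, had 24.6, 38.4, 11.2 and 29.3 CPM at day 7 and 6.26, 8.00, 1.91 and 7.62 CPM at day 6 (log2 fold change 2.12, SE 0.446, adjusted p 0.00181). Nkx6-1 rose by 1.85 (SE 0.446). Lhx3, a motor neuron factor, had 2.19, 2.54, 0.477 and 2.17 CPM at day 7, whereas no day 6 library exceeded 0.0646 CPM (log2 fold change 5.09, adjusted p 1.69e-05). On the dorsal list, Zic2 had 14.8, 12.9, 19.3 and 17.5 CPM at day 7 and 36.3, 44.5, 71.9 and 43.5 CPM at day 6 (SE of the log2 fold change 0.238, adjusted p 4.58e-05). Gbx2 (log2 fold change -1.96), Olig3 (-2.97) and the roof plate gene Msx1 also fell. Zic2 and Gbx2 are expressed outside the dorsal neural tube too, in the epiblast and streak among other places.

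Of 22 collagen and matrix genes 9 rose, 0 fell and 13 were not called (median 0.55). Without day 6 library 3 the count was 5, with Col1a1, Fbn1, Sparc and Dcn no longer called. Col3a1, a fibrillar collagen of mesenchyme (chromosome 1, 45311538 to 45349706), had 121, 43.1, 26.3 and 41.9 CPM at day 7 and 4.32, 0.885, 0.743 and 0.381 CPM at day 6 (log2 fold change 5.18, SE 0.557, adjusted p 4.39e-07). Lum, a matrix proteoglycan, had 3.39, 2.63, 1.30 and 2.51 CPM at day 7 and at most 0.320 CPM at day 6. Of 13 cardiac genes 8 rose and 0 fell (median 1.33). Myh7, a heavy chain of cardiac myosin, had 22.9, 27.1, 19.4 and 17.0 CPM at day 7 and 5.33, 4.14, 6.30 and 3.93 CPM at day 6 (log2 fold change 2.13, SE 0.287, adjusted p 1.92e-05), although its annotation overlaps the antisense gene Mhrt. Tnnt2, cardiac troponin T, had 27.1, 2.0, 8.49 and 3.31 CPM at day 7 and 0.506, 0.685, 0.582 and 0.205 CPM at day 6 (log2 fold change 4.36, adjusted p 5.07e-05). The 4 day 7 values of Tnnt2 differed among themselves more than those of Myh7, yet none met the day 6 values.

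Of 14 endothelial genes 10 rose and 0 fell (median 1.98). Tie1, a receptor kinase of endothelium, had 11.9, 2.63, 3.88 and 4.48 CPM at day 7 and 2.32, 0.171, 0.259 and 0.381 CPM at day 6 (log2 fold change 2.85, SE 0.549, adjusted p 0.000685). Library 1 was the highest of its group at both days, and likewise for Esam, Tek and Cldn5. Without day 6 library 1 the log2 fold change of Tie1 was 4.39 and that of Tek, the angiopoietin receptor gene, 3.17, against 2.85 and 2.03 with all libraries. The summed level of the 14 genes overlapped between the days, at 95.9 to 250 CPM at day 7 and 60.6 to 159 CPM at day 6. Of 17 lateral mesoderm genes 4 rose, with Isl1 at 19.8, 29.9, 24.4 and 21.5 CPM at day 7 and 9.73, 11, 6.66 and 3.52 CPM at day 6 (log2 fold change 1.63, adjusted p 0.0097). Isl1 is also counted among the postmitotic neuron genes that rose. Foxf2, Twist2 and Tbx5, which rose too, did not exceed 2.59 CPM at either day. Of 10 genes also active in yolk sac endoderm 4 rose, among them Apoa1 (log2 fold change 3.09) and Ttr (3.56), whose highest values at day 7 were 2.56 and 4.58 CPM. The defining yolk sac gene Afp did not exceed 0.585 CPM at day 7.

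Of 20 gut and definitive endoderm genes 16 were not called, 3 fell (Cer1, Trh and Gsc) and 1 rose, a count close to the 5.17% of all genes. Pyy, the gene of the gut hormone peptide YY (chromosome 11, 102106676 to 102107832), had 4.29, 12.5, 6.33 and 3.96 CPM at day 7 and 0.187, 0.314, 0.291 and 0.176 CPM at day 6 (log2 fold change 4.79, SE 0.505, adjusted p 4.39e-07). It had, with Col3a1, the smallest adjusted p of the step. Cer1, a secreted Nodal and BMP inhibitor, had 1.63, 5.75, 19.6 and 8.19 CPM at day 7 and 60.0, 87.9, 87.9 and 82.8 CPM at day 6 (log2 fold change -3.19, adjusted p 0.0182). Its call was lost when day 7 library 1, 2 or 4 was left out (adjusted p 0.0539 to 0.0719).

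Genes of Wnt signalling, timing and apoptosis were called as well, beside 5.17% of all genes higher and 7.02% lower. Of 16 Wnt targets and feedback genes 5 fell and 0 rose (median -0.45). Of these, Sp5 is also counted among the streak genes that fell and Ccnd1 among the let-7 genes that fell. The lists share further members, among them Dll3 and Perp. The Wnt-responsive factor Lef1 had 17.3, 15.2, 27.3 and 18.4 CPM at day 7 and 50.8, 62.6, 95.3 and 67.1 CPM at day 6 (log2 fold change -1.82, SE 0.333, adjusted p 0.000406). Notum, a secreted Wnt inhibitor, and Sp5 fell by 3.22 and 3.12. Of 13 genes of the let-7 and heterochronic pathway 4 fell, led by Lin28a, which blocks let-7 maturation, with 377, 410, 468 and 389 CPM at day 7 and 614, 750, 900 and 649 CPM at day 6 (log2 fold change -0.83, SE 0.144, adjusted p 0.000236). Of 16 p53 target and apoptosis genes 6 fell and 0 rose (median -0.34), and without day 6 library 3 the count was 3 (Pmaip1, Phlda3 and Perp). Pmaip1, a pro-apoptotic member of the Bcl2 family, had 6.83, 6.95, 12.8 and 8.29 CPM at day 7 and 18.1, 29.9, 36.4 and 24.2 CPM at day 6 (log2 fold change -1.64, adjusted p 0.00023).

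The counts of Hox genes called stand beside the 12.2% of all tested genes called in either direction. Of 11 trunk Hox genes of paralogue groups 5 to 8, 0 were called (median -0.35). Of 12 anterior genes of groups 1 to 4 (median -0.23), Hoxd1 and Hoxb1 fell, by 2.76 and 1.86 on the log2 scale. The 5 posterior genes tested had negative log2 fold changes (median -1.10), of which Hoxd13 was called lower, at no more than 0.486 CPM in any library. That call was lost without library 2 of day 6 (adjusted p 0.0663) or of day 7 (adjusted p 0.066). The most abundant posterior gene, Hoxb9, had 180, 69.8, 103 and 146 CPM at day 7 and 251, 107, 107 and 226 CPM at day 6 (log2 fold change -0.47, SE 0.510, adjusted p 0.572). Of 20 genes of the integrated stress response 0 were called, of 23 S and M phase genes 1 fell, and of 10 mitochondrially encoded genes 0 were called.

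**Figure D2:**
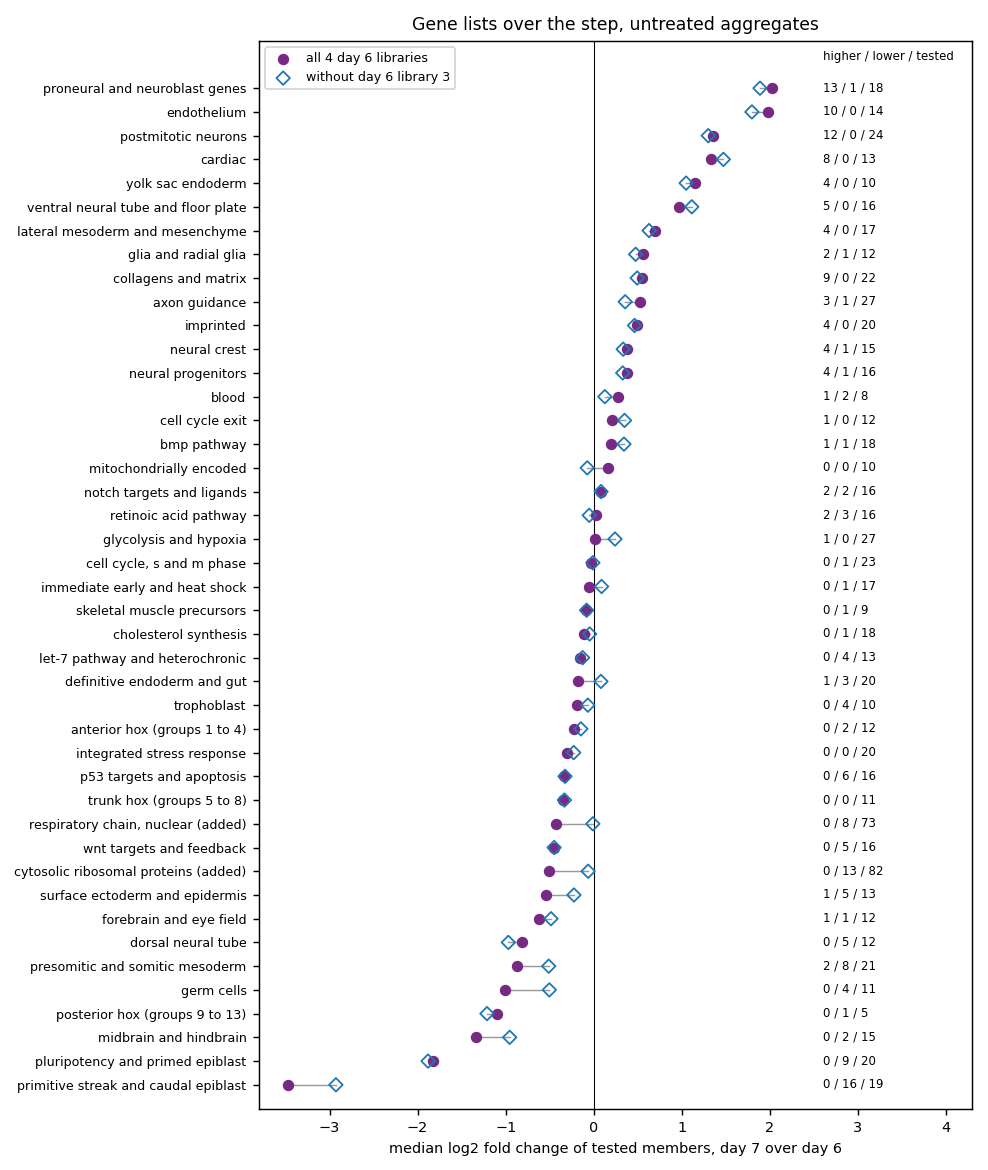
Median log2 fold change, day 7 over day 6, of the tested members of 43 gene lists, with all 4 day 6 libraries (filled circles) and without day 6 library 3 (open diamonds); the counts at the right are members called higher, called lower and tested with all libraries. The streak and caudal epiblast list lies lowest at -3.47 and moves to -2.93, and the ribosomal protein list moves from -0.51 to -0.06.

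Set against the earlier days, some of the named genes that fell had been falling already. How many of all the genes that fell had done so was not counted. Over days 3, 4, 5, 6 and 7, Pou5f1 averaged 788, 799, 399, 55.6 and 4.25 CPM and Nkx1-2 averaged 1.30, 157, 365, 70.7 and 2.79 CPM. Other genes that fell were later, and Cer1, Trh, Cyp26a1 and some presomitic genes had their highest mean at day 6. Mesp2 averaged 0.247, 0.252, 1.05, 6.12 and 0.446 CPM and had its highest mean at day 6. So did Hes7 at 13.5 ± 12.1 CPM and Ripply2 at 3.19 ± 3.17 CPM (SD, n = 4). Tbx6, on the same list, averaged 33.5 CPM at day 5 and 15.6 CPM at day 6. The day 6 mean of Mesp2 contained 13.3 CPM from library 3. Without library 3 the day 6 means of Mesp2 and Ripply2, 3.74 and 1.73 CPM, were still their highest. That of Hes7, 7.94 CPM, was then below its day 5 mean of 9.95 CPM. Pax1 and Col3a1 stayed below 0.3 CPM on average through day 5, whereas Dcx averaged 14.7 ± 1.37 CPM at day 4 and 1.15 ± 0.583 CPM at day 6, so that its rise at day 7 was a second one.

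**Figure D3:**
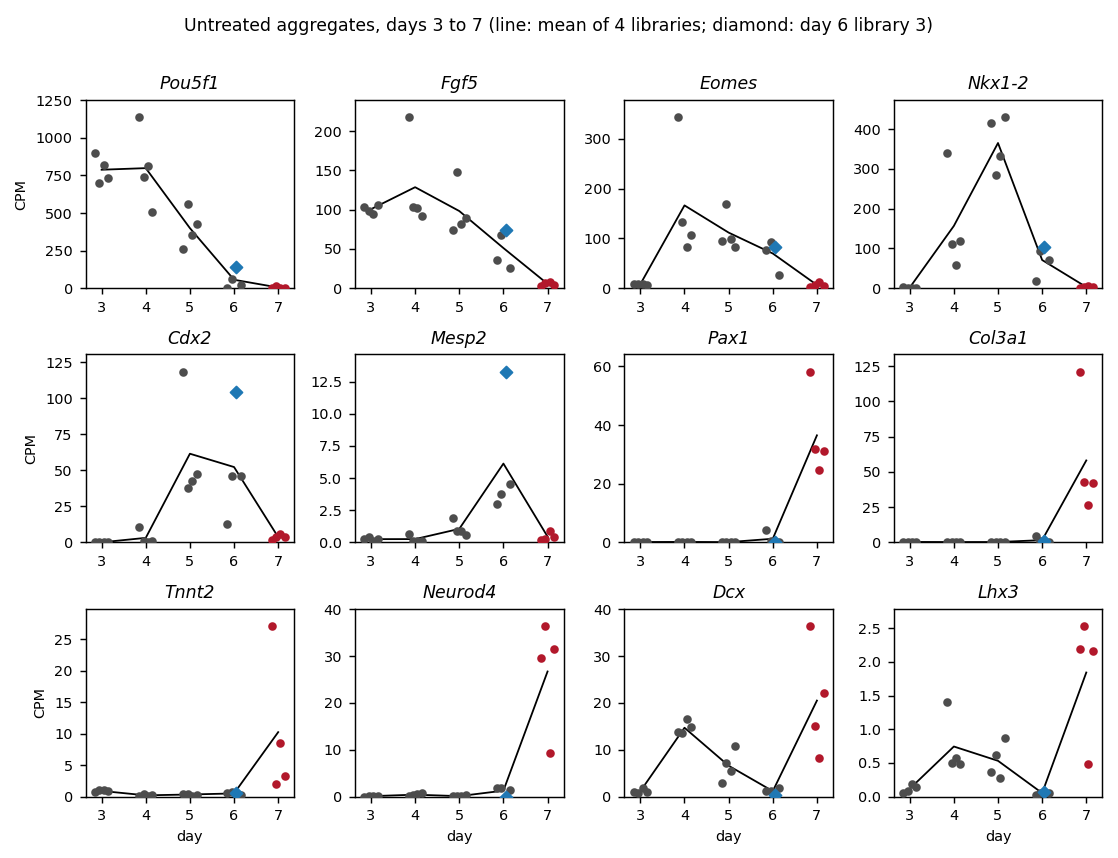
CPM of 12 genes in untreated libraries from day 3 to day 7 (points, red at day 7; line, mean of 4 libraries; blue diamond, day 6 library 3). Pou5f1, Fgf5 and Nkx1-2 decline before day 6, Mesp2 has its highest mean at day 6, and Dcx has an earlier high at day 4.

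The call counts of the step depended on library 3 of day 6. Without it 471 genes (2.79%) were higher and 481 (2.85%) were lower at day 7. Of the 873 genes called higher 448 were called again, and of the 1184 called lower 450 were, while 23 and 31 others were gained. Fewer libraries can also lower the number of calls. Leaving out the other day 6 libraries in turn gave 765 to 1235 genes higher and 1269 to 1796 lower. Without day 7 library 1 the counts were 515 higher and 652 lower, not far above those without day 6 library 3. Leaving out the other day 7 libraries in turn gave 674 to 796 higher and 723 to 952 lower. The genes that lost the call without day 6 library 3 kept their direction, with 1 exception among the 734 lost falls. The lost falls were small, with a median log2 fold change of -0.79 with library 3 and -0.50 without it, whereas the falls called in both fits had medians of -1.63 and -1.50. For the lost rises the medians were 0.95 and 0.83, and for the kept rises 1.80 and 1.66.

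**Figure D4:**
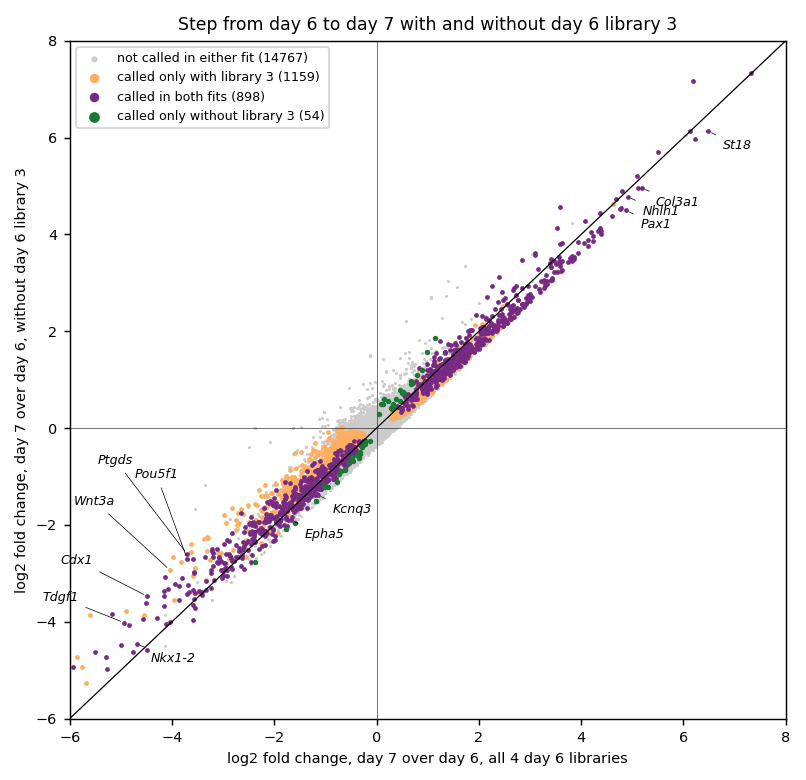
Log2 fold change, day 7 over day 6, with all 4 day 6 libraries (horizontal) and without day 6 library 3 (vertical) for 16878 genes; the line marks equal values. Genes called in both fits (purple, 898) reach far from 0 on both sides, and those called only with library 3 (orange, 1159) lie mostly closer to 0 and, among falls, above the line.

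The calls that depended on library 3 differed from the kept calls in transcript length. In that library the log2 difference from the other day 6 libraries had a Spearman correlation of -0.593 with the length of the longest annotated transcript (across genes, which are not independent replicates), against 0.282 to 0.432 in the other day 6 libraries, each of which was set against a mean that included library 3. Of 5 equal bins of genes by length, the shortest (median 1252 bases) was higher in it by a median of 0.69, and the longest (median 6665 bases) had a median log2 difference of -0.88. With all libraries 11.6% of the shortest bin and 2.82% of the longest were called lower at day 7, and without library 3 these shares were 2.52% and 2.58%. Of the shortest bin 2.70% and of the longest 8.45% were called higher, and without library 3 the shares were 2.13% and 3.82%. The median transcript length was 2021 bases for the lost falls and 2980.5 bases for the kept ones, and 4453 bases for the lost rises and 3720 bases for the kept ones. With each library's trend on length and GC content taken out, 1244 genes (7.37%) were higher and 1353 (8.02%) lower with library 3 included. That fit called 443 of the 450 kept falls and 436 of the 734 lost falls in the same direction. Of the rises it called 447 of the 448 kept and 369 of the 425 lost. With the trends taken out and library 3 left out as well, 684 genes were higher and 614 lower.

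**Figure D5:**
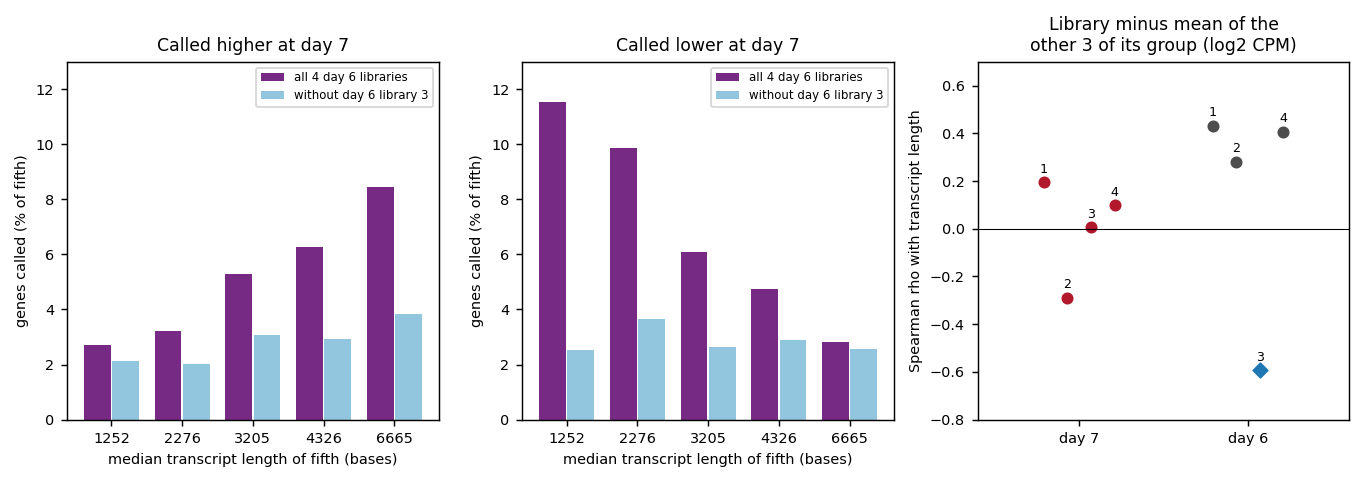
Left and middle, percent of genes called higher and lower at day 7 in 5 equal bins of genes by transcript length, with all 4 day 6 libraries (purple) and without day 6 library 3 (light blue); right, Spearman correlation across genes between transcript length and each library's difference from the other 3 of its group, for day 7 and day 6. The excess of falls among short transcripts, 11.6% in the shortest bin, is absent without library 3 (2.52%), and that library lies lowest at -0.593.

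Library 3 differed from the other day 6 libraries in some lists of cell-type genes, as well as by length. Along the axis from day 6 to day 7, measured on the 952 genes called without it, with 0 at the mean of the other day 6 libraries and 1 at the mean of day 7, it lay at -0.284, so that it was farther from day 7 than its group. The same measure, each time on the genes called without the library placed, gave 0.543 for library 1, 0.0393 for library 2 and 0.152 for library 4. In library 3, 66.9% of the falling genes were above all other day 6 libraries and 69.4% of the rising genes below all of them. On the genes called without the library placed, these shares were 6.68% and 7.69% for library 1, 33.3% and 29.7% for library 2. For library 4 they were 15.6% and 29.7%. The shares over all genes were not worked out. Its summed level of the 19 streak genes was 907 CPM, against 325 to 612 CPM in the other day 6 libraries and 131 to 177 CPM at day 7. Its summed level of the 21 presomitic and somitic genes was 1043 CPM, against 522 to 600 CPM in the other day 6 libraries. That of the epiblast list, 625 CPM, lay within the 343 to 664 CPM of the other day 6 libraries. Its sum of collagen and matrix genes was the lowest, 1367 CPM against 2127 to 2593 CPM. Whether cell makeup, RNA quality or the length trend accounts for these values was not tested.

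Among short transcripts of the housekeeping machinery, no call was left without library 3. Of 82 genes of cytosolic ribosomal proteins 13 fell, with a median of -0.51, and without library 3 the count was 0 and the median -0.06. Of 73 nuclear genes of the respiratory chain 8 fell, with a median of -0.43, and without it 0 fell and the median was -0.01. Their shares called lower stand beside the 11.6% of all genes in the shortest length bin. Both lists were added after library 3 was seen to lean to short transcripts, and ribosomal protein genes have many near-identical copies, which the counting may have split. In the streak list the calls without library 3 were 10 of 19 rather than 16, and the median was -2.93. Mixl1, Wnt3, Wnt3a, Fgf8, Evx1 and Cyp26a1 lost the call. Wnt3a, a ligand of the caudal epiblast, had 0.357, 0.0244, 0.859 and 0.149 CPM at day 7 and 1.36, 3.31, 14.6 and 2.99 CPM at day 6, and its log2 fold change went to -2.93 (adjusted p 0.12) without library 3, against -4.05 (adjusted p 0.0136) with it.

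Bax, a pro-apoptotic gene, had 63.2, 87.4, 78.3 and 79.0 CPM at day 7 and 84.7, 87.6, 222 and 93.1 CPM at day 6. The groups overlapped, and without library 3 the log2 fold change was -0.20 (adjusted p 0.606) rather than -0.66. The calls of Cyp26a1, Gsc, Hoxb1, Pou3f1, Emx2, Rarb, Pou3f2, Tbx5 and Slc1a3 were also lost without it, with adjusted p of 0.0589 to 0.308. With Wnt3a and Bax these 11 were the calls lost among the 97 called genes of the named set, and none of the set reversed.

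Other genes had the opposite dependence, since library 3 was nearer to day 7 than the rest of its group. Epha5, an ephrin receptor gene with a longest transcript of 7328 bases, had 3.21, 2.71, 3.97 and 2.99 CPM at day 7 and 9.14, 11.4, 5.11 and 15.7 CPM at day 6. Its log2 fold change was -1.90 without library 3 and -1.68 with it. The potassium channel gene Kcnq3 had 3.43 CPM in library 3 and 8.71 to 9.44 CPM in the other day 6 libraries, and a log2 fold change of -1.39 without library 3 and -1.15 with it. The brain creatine kinase gene Ckb rose by 1.75 without library 3 and by 1.52 with it.

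Heart, ventral neural and yolk sac endoderm genes depended little on library 3. Without it, 8 of 13 cardiac, 5 of 16 ventral neural and 4 of 10 yolk sac endoderm genes were called higher, the same counts as with it. Of the epiblast list 8 of 20 fell rather than 9, and of the endothelial list 8 of 14 rose rather than 10. The neuronal list had 8 of 24 rather than 12, with Map2, Nefl, Syt4 and Onecut2 no longer called, and the proneural list 10 of 18 rather than 13. For Col3a1, Pyy and Fgf5 the adjusted p without it was 9.23e-06 in each case, with log2 fold changes of 4.96 for Col3a1 and 4.89 for Pyy.

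With XAV939 the same step had 709 genes higher (4.20%) and 500 lower (2.96%). Of the genes called higher in the untreated arm 453 were called higher in the XAV939 arm, 51.9% of the untreated and 63.9% of the XAV939 list, and 389 were lower in both, 32.9% and 77.8% of those lists. None was called in opposite directions. Genes whose untreated call was kept without library 3 were called in the XAV939 arm in 73.4% of rises and 59.1% of falls, and those whose call was lost in 29.2% and 16.8%. The 2 arms share no libraries. The kept genes had the larger fold changes of the sets, as given above.

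No gene's change differed between the arms at an adjusted p below 0.05 in edgeR's test of the difference (0% of 16878), with 362 at an unadjusted p below 0.05, fewer than the 843.9 that 5% of the tested genes would make. DESeq2 called 0 as well, with 358 at an unadjusted p below 0.05. The median SE of the difference was 0.312, and a p that misses the threshold does not show that the arms moved alike. St18 rose by 6.49 in the untreated arm and by 3.21 in the XAV939 arm, a difference of 3.27 (SE 1.08) that did not pass the adjusted threshold. For Nkx1-2 the log2 fold changes were -4.69 in the untreated and -4.50 in the XAV939 arm, a difference of -0.19 (SE 0.83), and for Fgf5 they were -3.25 and -2.25, with an SE of the difference of 0.498. Cyp26a1, which breaks down retinoic acid, had log2 fold changes of -1.68 in the untreated arm and -0.12 in the XAV939 arm. The ribosomal protein list had a median of -0.51 in the untreated arm and -0.23 in the XAV939 arm, where 0 of 82 genes were called.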

How the data were processed

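Poly(A) RNA was taken with Trizol and made into stranded TruSeq libraries read as 81 bp pairs, per the labels' protocols. The build mm10 and the tool bcl2fastq 2.20.0 come from the submitters' processing notes. For the aligner, counting program and strand setting, the sources used here give none. The authors deposited raw counts per gene. Of 26906 genes 26881 were matched to GENCODE M21 for coordinates, length and GC content. The self-computed steps used R 4.3.3, edgeR 4.0.16 (filterByExpr with minimum count 10 and minimum total 15, TMM, robust quasi-likelihood, 10 group means over 40 libraries, Benjamini-Hochberg adjustment) and, as an alternative, DESeq2 1.42.0. On simulated counts of 16717 genes with 200 changed, the step's test recovered 93% of 2-fold and 100% of 4-fold changes, with 3.02% of calls false. The changed genes were drawn only from those with higher mean counts. The simulated libraries varied independently around their group means, with no deviant library and no length trend. These rates therefore do not carry over to genes of few counts or to data with a library such as day 6 library 3.

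The comparison, the gene lists and the named genes were chosen with earlier results of these data known. The rule took the 12 top rises and 12 top falls among called genes whose groups did not overlap and whose higher mean reached 5 CPM, the 6 smallest adjusted p each way, up to 4 members of each list described, and the 6 genes with the largest loss and gain of fold change without day 6 library 3. T, Sp8, Gdf11, Dll1 and other list members given only by call fall outside it, named with their values known. Replicate numbers pair the arms, with correlations of deviations across genes of 0.279 to 0.404 within day 6 and 0.256 to 0.520 within day 7. Length and GC offsets (natural splines, 5 degrees of freedom) and 2 lists, ribosomal proteins and respiratory chain, were added after the data were seen. Some genes are not reported here. Alternatives are listed in the closing section.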

Additional observations from a re-analysis of the deposited data

Results flagged for a closer look

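Among 204 sets of 4 library values tested (named genes and the mitochondrial share at day 7 and at day 6), 20 had 1 library far from the other 3 by Dixon's criterion. Chance flags about 1 in 20 such sets, which is 10.2 here, but the named genes were chosen partly for their dependence on day 6 library 3, so the counts are not comparable. At day 7 library 3 stood apart for Tbx6 (1.59 CPM) and Ripply2 (0.286 CPM) on the high side and for Nhlh1 (2.89 CPM), Insm1 (4.20 CPM) and Elavl4 (10.8 CPM) on the low side. Library 1 of day 7 stood apart for Tfap2c (0.513 CPM, low) and for the imprinted gene Dlk1 (19 CPM, against 5.19 to 7.54 CPM in the other 3). Without it the log2 fold change of Dlk1 was 0.77 (adjusted p 0.085), against 1.35 with it.

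At day 6 library 3 stood apart on the high side for Wnt3a (14.6 CPM), Mesp2 (13.3 CPM), Ptgds (26.4 CPM) and Bax (222 CPM), and on the low side for Kcnq3 (3.43 CPM). Library 1 of day 6 stood apart on the high side for Pax1 (4.26 CPM), Col3a1 (4.32 CPM), Dll4 (1.41 CPM), Cldn5 (1.73 CPM), Tie1 (2.32 CPM), Esam (3.76 CPM) and Tek (6.29 CPM), and on the low side for Grhl3 (4.61 CPM). Over 10613 genes of at least 5 CPM, library 3 of day 6 stood apart from its group in 16.8%, high in 1233 and low in 553, against 84, 39 and 38 genes for libraries 1, 2 and 4.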

How the results depend on the processing

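Counts of genes higher and lower at day 7 were 873 and 1184, and 901 and 1130 with relative log expression size factors, 767 and 944 with no filter on low counts, 1035 and 1356 with DESeq2, and 1244 and 1353 with length and GC offsets. A filter of 5 CPM in 4 libraries left 506 and 764, with fewer genes tested. The fit of the 8 libraries alone gave 237 and 244, that of the 20 untreated libraries 651 and 750, and requiring a change of 1 on the log2 scale left 589 and 636. Offsets without day 6 library 3 gave 684 and 614. Leaving out each library in turn gave 471 to 1235 genes higher and 481 to 1796 lower. Besides day 6 library 3 (471 and 481), counts moved over 1.5 times without day 6 library 1 (1796 lower), day 7 library 1 (515 and 652) and day 7 library 4 (723 lower). With the replicate number as a block in the fit of the 8 libraries the counts were 436 and 408. In the untreated arm the numbers did not meet the criterion for pairing the days, since the correlations were 0.439, 0.227, -0.00 (library 3) and 0.327, and 3 of 4 libraries correlated best with their own number. In the XAV939 arm they were 0.223 to 0.635, all 4 best with their own number. The difference between the arms stayed at 0 calls in each alternative, the pairing block within day included. No named gene reversed direction, and the calls of Wnt3a, Cer1, Gsc, Hoxd13, Cyp26a1, Rarb, Pou3f2, Tbx5, Emx2, Dlk1, Kcnq3, Bax, Arid3b, Ccnd1, Egfl7, Twist2, Foxf2, Apom and Plppr3 were lost without at least 1 library other than day 6 library 3 (adjusted p 0.0501 to 0.377). Depth limits genes of a few counts, such as Trp63.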

Other observations

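Of 13 surface ectoderm genes 5 fell and 1 rose, and without day 6 library 3 the falls were 3. Grhl3, an epidermal factor, had 0.223, 1.29, 1.69 and 0.996 CPM at day 7 and 4.61, 9.77, 10.2 and 9.55 CPM at day 6, whereas Trp63, a factor of stratified epithelium, had 70 counts over the day 7 libraries and 3 over the day 6 libraries, a ratio of 20.4 with a counting interval of 6.70 to 101. Of 15 neural crest genes 4 rose and 1 fell, and their summed level was 218 to 307 CPM at day 7 and 63.4 to 156 CPM at day 6. Of 20 imprinted genes 4 rose and 0 fell, 1 without day 6 library 3.

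Of the genes with the largest changes that belong to no list, Enpp1, an ectonucleotidase, had 25.9, 22.1, 9.86 and 6.97 CPM at day 7 and 2.03, 0.543, 0.291 and 0.234 CPM at day 6 (log2 fold change 4.36, SE 0.515, adjusted p 2.16e-06 in edgeR). Alox15, a lipoxygenase, had 0.402, 0.610, 0.700 and 0.324 CPM at day 7 and 1.31, 12, 16.5 and 6.21 CPM at day 6 (log2 fold change -4.16). Nkx2-3, a homeobox gene of gut mesoderm, had 2.66, 4.46, 4.13 and 2.02 CPM at day 7 and at most 0.257 CPM at day 6 (log2 fold change 4.36). Gm16551, an annotated gene with no function given, had 14.5, 13.9, 4.36 and 15.9 CPM at day 7 and 0.506, 0.486, 0.194 and 0.586 CPM at day 6 (log2 fold change 4.76), and library 3 was the lowest of each group.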
